A study of Homo sapiens with 6 samples.

Results

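The transcripts described here are the 17 long noncoding and host-gene transcripts among the 1099 genes of the deposited table, chosen by gene symbol alone: names that begin with LINC or SNHG, that have the form MIR...HG, or that end in -AS with a number, -DT or -IT1. They comprised 6 small nucleolar RNA (snoRNA) host genes (SNHG5, SNHG15, SNHG16, SNHG17, SNHG29 and SNHG32), 1 microRNA host gene (MIR4435-2HG), 3 antisense transcripts (CCDC90B-AS1, CLCA4-AS1 and CYP1B1-AS1) and 7 long intergenic noncoding RNAs (LINC00511, LINC00665, LINC00882, LINC00973, LINC01411, LINC01559 and LINC02582), and no name in the table ended in -DT or -IT1.

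The table compared wild-type AGS, a human cell line established from a gastric adenocarcinoma, after culture for 24 h with vehicle or with SSD (saikosaponin D, a triterpenoid saponin of Radix Bupleuri), with 3 libraries of polyadenylated RNA in each group. The labels give 10 µM for the treated cells, but the study's methods give a lower dose, and the protocol fields of the labels name a prostate line, C4-2B, and a compound L14-8, so the dose and the compound name are not settled. Of 14 markers of gastric and other simple epithelium looked for, the table held CDH17 (33.6 to 48.0 TPM over the 6 libraries) and TFF1 (33.3 to 81.5 TPM). It held 0 of 8 prostate, 0 of 5 leukocyte and 0 of 3 endothelial markers, and 1 of 5 fibroblast markers, COL1A1 (10.0 to 15.8 TPM), but a table restricted to genes picked for change cannot show that the other markers were absent from the cells. TPM is a read share of the whole library corrected for transcript length, so levels of different genes are compared on that scale.

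Long noncoding RNAs do not code for proteins, and several classes of them are known mainly for what they carry or where they lie. A snoRNA host gene holds snoRNAs in its introns, which are cut from the excised introns and guide chemical modification of ribosomal RNA in the nucleolus, while the spliced host transcript is exported and is often broken down by nonsense-mediated decay. Many hosts begin with a terminal oligopyrimidine (TOP) tract, a run of C and T at the first base that also marks ribosomal protein genes and links their expression to growth signalling. Antisense transcripts lie on the strand opposite a named gene, and intergenic transcripts lie between genes.

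The snoRNAs that the host genes carry are shown first, because they are the products by which this class is defined. GENCODE release 29 lists 15 snoRNAs inside the 6 hosts, of which 5 lie in introns of every host transcript and 10 overlap an exon of at least 1 transcript. SNORA9 lies within SNHG15, the host with the largest log2 fold change, at chr7:44985378-44985510 on the minus strand, and carries the ACA box in capitals, 3 bases before its end, that marks the H/ACA class. C/D-class snoRNAs follow, with box C (TGATGA) and box D (CTGA) in capitals: SNORD50B of SNHG5 (chr6:85677589-85677658, minus strand), SNORD48 of SNHG32 (chr6:31835263-31835326, plus strand) and SNORD49A of SNHG29 (chr17:16440036-16440106, plus strand), all in GRCh38 and written as DNA.
SNORA9: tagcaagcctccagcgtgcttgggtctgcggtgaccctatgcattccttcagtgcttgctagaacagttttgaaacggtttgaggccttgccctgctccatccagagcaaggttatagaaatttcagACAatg
SNORD50B: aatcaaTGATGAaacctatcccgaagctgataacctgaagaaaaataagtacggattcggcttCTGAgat
SNORD48: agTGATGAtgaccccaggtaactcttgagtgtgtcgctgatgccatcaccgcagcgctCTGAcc
SNORD49A: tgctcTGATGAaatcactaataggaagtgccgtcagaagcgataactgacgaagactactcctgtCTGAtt
Of the 955 snoRNA transcripts in GENCODE, 22.8% held both C and D boxes in the 20 bases at each end, and 29.4% held ACA 3 bases before the end, each read on the snoRNA's own strand. Among the hosts' snoRNAs, SNORD1A and SNORD1C of SNHG16 and SNORA71A, SNORA71C and SNORA71D of SNHG17 matched neither rule. The SNORA71 sequences read here end in ACA, but the annotated sequence stops there, so the rule missed them. SNORA71B and RF00056 of SNHG17 were not read by these rules. The snoRNAs printed all overlap an exon of at least 1 host transcript. MIR4435-2HG holds hsa-miR-4435 in an intron (chr2:111321061-111321082 in GRCh38.p14, minus strand, RefSeq), shown with its seed, bases 2 to 8, in capitals.
hsa-miR-4435: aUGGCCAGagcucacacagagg
The mature sequence is also produced from a second locus of chromosome 2, MIR4435-1. The libraries held polyadenylated RNA, and the levels below are those of the host transcripts, not of the small RNAs.

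The first bases of the host genes are shown because the TOP tract is read there. Each window runs from 50 bases before the RefSeq start to 30 bases into the transcript (GRCh38.p14), and capitals mark a C at the first transcribed base followed by at least 4 pyrimidines (C or T), searched on the transcript's strand only. RefSeq starts were found for 14 of the 17 members, and not for SNHG15, LINC01559 or LINC02582. The windows lie at chr6:85678704-85678783 (SNHG5, minus strand), chr6:31834866-31834945 (SNHG32, plus strand), chr17:16438937-16439016 (SNHG29, plus strand), chr17:76557714-76557793 (SNHG16, plus strand), chr20:38435299-38435378 (SNHG17, minus strand) and chr5:174336304-174336383 (LINC01411, plus strand, shown as the member with the largest fall).
SNHG5: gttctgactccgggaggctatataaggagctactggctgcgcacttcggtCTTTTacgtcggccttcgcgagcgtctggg
SNHG32: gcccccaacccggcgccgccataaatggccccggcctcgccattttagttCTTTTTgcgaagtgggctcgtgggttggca
SNHG29: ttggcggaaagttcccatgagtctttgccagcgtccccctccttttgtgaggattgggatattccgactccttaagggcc
SNHG16: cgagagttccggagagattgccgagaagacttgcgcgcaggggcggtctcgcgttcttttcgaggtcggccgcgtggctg
SNHG17: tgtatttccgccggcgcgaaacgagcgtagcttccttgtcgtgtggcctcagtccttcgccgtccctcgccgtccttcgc
LINC01411: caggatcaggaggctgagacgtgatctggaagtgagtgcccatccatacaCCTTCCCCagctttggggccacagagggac
SNHG32 and SNHG5 began with a tract of 6 and 5 bases by this rule, and the other hosts shown did not. Over all members with a start, 5 of 18 RefSeq starts held a tract, against 7.64% of the 1256 starts of table genes and 4.07% of 35116 RefSeq starts. The 18 starts belong to 14 members, since LINC00973 and LINC00665 have more than 1 start each. The start of LINC00973 that held a tract, chr3:98967084, lies before its GENCODE span, which begins at 98981058. CACGTG, the E-box read by Myc and related factors and identical on both strands, was in 0 of the 18 windows of 300 bases (250 before to 50 after the start) of the members, in 11.2% of those of the table's genes and in 7.26% of all of them. These matches describe letters in a window and are not measured sites.

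Estimated counts were tested with edgeR's quasi-likelihood test on a library scale taken from the ratio of counts to TPM (the whole-library scale), with p-values adjusted over 11289 genes, and under SSD 9 of 17 members fell at an adjusted p under 0.05 while 18.4% of all table genes did. In bulk RNA, less RNA in each cell and a change in the mixture of cells cannot be told apart. CLCA4-AS1 was the 1 member that rose, against 32.3% of all table genes. A total of 16 members had a log2 fold change below 0, as had 64.8% of the table, which was itself selected for change. In TPM, the 3 SSD libraries lay below all 3 vehicle libraries for 13 members, and 44.2% of all table genes showed such a separation. The median log2 fold change was -0.39 over the members and -0.14 over all table genes. The summed level of the 17 members was 2992 TPM ± 5.53 (SD, n = 3) with vehicle and 2527 ± 125 with SSD, 15.6% lower.

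The number of calls moved with the zero of the scale. TMM, which assumes that most genes of the table are unchanged, raised all log2 fold changes by a median of 0.08 and left 5 members lower (7.92% of table genes) and CLCA4-AS1 higher (35.0%). The table's log2 fold changes left a gap around 0, from -0.04 to 0.20, and a scale with its zero at the middle of that gap, at 0.08, called 14 members lower (49.5% of table genes) and CLCA4-AS1 higher (22.1%). No member changed direction on any of these scales, and few table genes did: 712 lay below 0 on the whole-library scale and 687 on TMM. SNHG15, LINC01411, LINC01559, LINC00973, CCDC90B-AS1 and CLCA4-AS1 passed the test on all 3.

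The replicate libraries did not contribute equally. The library scale, relative to its geometric mean, was 0.96, 1.28 and 1.07 in vehicle libraries 1, 2 and 3, with vehicle library 2 the largest. It was 0.93, 0.95 and 0.87 in SSD libraries 1, 2 and 3, below every vehicle library. SSD library 3 had the highest TPM of the SSD libraries for 12 of the 17 members, against 51.5% of table genes. Without it 14 members and 313 of the 1099 table genes fell, against 9 and 202 with all libraries. Without vehicle library 2 only 2 members fell, SNHG15 and LINC01559, and 60 table genes did. Without vehicle library 3 or SSD library 2 the numbers were 4 and 3 members, and 72 and 73 table genes. No label states that the libraries of a group came from separate cultures, so the p-values measure the spread between these libraries, which may be technical.

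**Figure D1:**
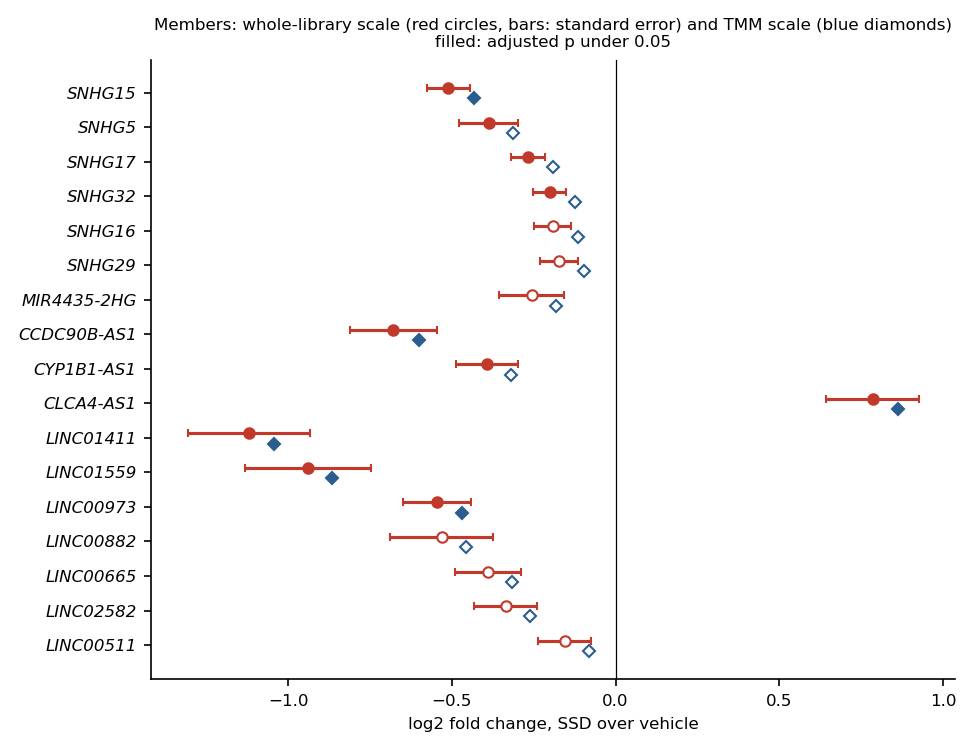
Log2 fold change (SSD over vehicle, x axis) of the 17 members (y axis), grouped by class. Red circles with standard errors are from the whole-library scale, blue diamonds from TMM, and filled symbols passed an adjusted p of 0.05. On both scales 16 members lie below 0 and CLCA4-AS1 lies above.

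Among the snoRNA host genes, 4 of 6 fell (SNHG15, SNHG5, SNHG17 and SNHG32), against 18.4% of all table genes, and SNHG16 and SNHG29 did not pass the test. Their summed level was 2129 TPM ± 74.0 (SD, n = 3) with vehicle and 1858 ± 58.7 with SSD, 12.7% lower, without overlap between the groups. The median log2 fold change of the 6 was -0.23. On the TMM scale SNHG15 alone passed the test, where 7.92% of table genes fell, and the median was -0.16. With the zero at the middle of the gap all 6 passed, where 49.5% of table genes fell.

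SNHG15 (ENSG00000232956, chr7:44983023-44986961, minus strand), the host of SNORA9, is a gene of chromosome 7 whose spliced RNA is known to be short-lived. It stood at 83.5, 84.8 and 82.45 TPM in vehicle libraries 1, 2 and 3 and at 60.9, 57.7 and 54.0 TPM in SSD libraries 1, 2 and 3. Every SSD library was below every vehicle library, and the spread within each group was small beside the distance between them. The log2 fold change was -0.51 (SE 0.0669, edgeR adjusted p = 0.00304), a level 29.8% lower. SNHG15 was the only member that passed the test under each of the 18 alternatives tried, between -0.59 and -0.41.

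SNHG5 (ENSG00000203875, chr6:85660950-85678748, minus strand), the host of SNORD50B that begins with the TOP tract shown above, had 228, 220.0 and 207 TPM with vehicle and 165, 169 and 195 TPM with SSD. The groups did not overlap, but SSD library 3 came close to vehicle library 3. Its log2 fold change was -0.39 (SE 0.0906, edgeR adjusted p = 0.0311), and the call was lost when any library other than SSD library 3 was left out.

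SNHG17 (ENSG00000196756, chr20:38420588-38435353, minus strand) carries the SNORA71 family of H/ACA snoRNAs. It had 146, 149.7 and 152 TPM with vehicle and 128.5, 128 and 122 TPM with SSD. All SSD libraries were below all vehicle libraries. That gave a log2 fold change of -0.27 (SE 0.0520, edgeR adjusted p = 0.0130), and on the TMM scale it was -0.19 with an adjusted p of 0.122. The call was also lost without vehicle library 2, vehicle library 3 or SSD library 2.

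SNHG32 (ENSG00000204387, chr6:31834608-31839766, plus strand) hosts SNORD48 and SNORD52 and is listed in GENCODE 29 as C6orf48, a coding gene. It stood at 524, 482 and 482 TPM with vehicle and 437, 442 and 453 TPM with SSD. The groups were apart, with vehicle library 1 the highest. The log2 fold change of -0.20 (SE 0.0512, edgeR adjusted p = 0.0482) lay just inside the threshold, and leaving out any library but SSD library 3 lost the call. Of its 31-base words, 22.3% also occur in other genes, chiefly the overlapping AL671762.1, and how its counts were divided from that gene's was not tested.

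The remaining hosts were SNHG29, listed in GENCODE 29 as LRRC75A-AS1, and SNHG16. SNHG29 (ENSG00000175061, chr17:16438822-16478678, plus strand), the host of SNORD49A, SNORD49B and SNORD65, was the most abundant member, at 1073 TPM ± 53.9 (SD, n = 3) with vehicle and 964 ± 45.05 with SSD. Its log2 fold change was -0.17, with an interval of 2 standard errors from -0.29 to -0.06 and an edgeR adjusted p of 0.163. SNHG16 (ENSG00000163597, chr17:76557766-76565348, plus strand), which hosts SNORD1A, SNORD1B and SNORD1C, had 108 ± 8.58 TPM with vehicle and 90.9 ± 2.05 with SSD, a log2 fold change of -0.19 and an edgeR adjusted p of 0.0960. In both genes the TPM groups did not overlap. LRRC75A lies opposite to exons of SNHG29, and AC015802.6 opposite to exons of SNHG16. Whether the libraries kept strand is not stated in the sources used here.

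**Figure D2:**
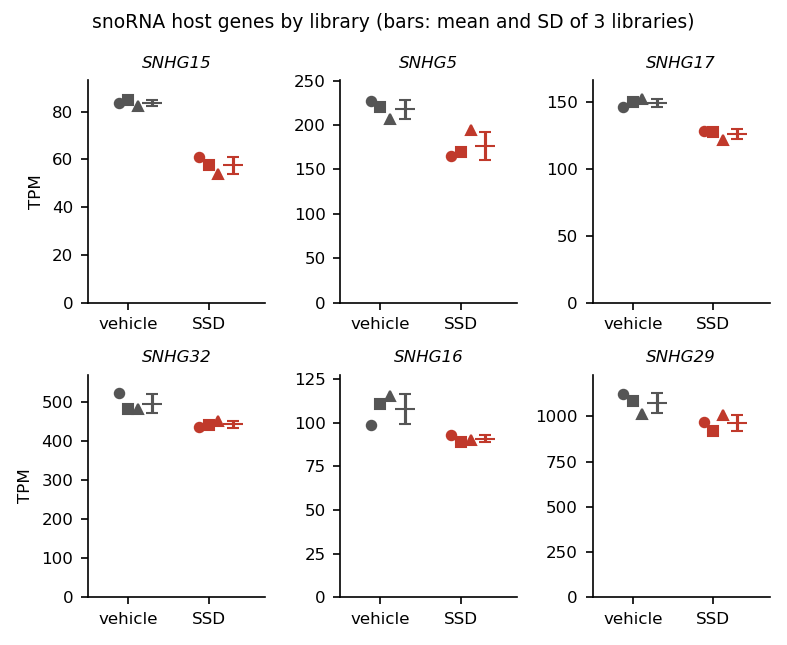
Level in TPM (y axis, from 0) of the 6 snoRNA host genes in the vehicle and SSD libraries. Circles, squares and triangles are replicates 1, 2 and 3, and bars give the mean and SD of 3 libraries. In each panel every SSD library lies below every vehicle library, as for 44.2% of all table genes.

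MIR4435-2HG (ENSG00000172965, chr2:111036776-111523376, minus strand), the microRNA host gene, did not pass the test. It had 65.2, 65.2 and 58.0 TPM with vehicle and 58.6, 43.75 and 57.6 TPM with SSD. SSD library 1 lay above vehicle library 3, so the groups overlapped, and SSD library 2 was the low one. Its log2 fold change was -0.26 (SE 0.10, edgeR adjusted p = 0.334). Its near-copy CYTOR shares 25.2% of its 31-base words, the counts were not whole in all 6 libraries, and how reads were divided between the 2 genes was not tested. Exons of MIR4435-2HG also overlap BCL2L11 on the opposite strand, and whether the libraries kept strand is not stated.

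The antisense transcripts moved in both directions: CCDC90B-AS1 and CYP1B1-AS1 fell, and CLCA4-AS1 rose. Each overlaps exons of a gene on the opposite strand, and whether the libraries kept strand is not stated in the sources used here. Whether reads of those genes were counted for the antisense transcripts was not tested. The summed level of the antisense transcripts, mostly CYP1B1-AS1, was 289.5 TPM ± 25.9 (SD, n = 3) with vehicle and 229 ± 24.5 with SSD, 21.0% lower. CCDC90B-AS1 (ENSG00000255234, chr11:83286128-83423516, plus strand, AP000446.1 in GENCODE 29) lies opposite to CCDC90B, a gene of a mitochondrial coiled-coil protein. It had 7.19, 8.7 and 7.2 TPM with vehicle and 5.06, 5.15 and 4.27 TPM with SSD. The groups were apart, and vehicle library 2 was the highest. This was a log2 fold change of -0.68 (SE 0.132, edgeR adjusted p = 0.0132), a level 37.5% lower, and the call was lost without vehicle library 2.

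CYP1B1-AS1 (ENSG00000232973, chr2:38073447-38231651, plus strand) overlaps exons of CYP1B1, a cytochrome P450 gene under the control of the aryl hydrocarbon receptor, on the opposite strand. It was the most abundant antisense member, with vehicle levels of 253, 277 and 306 TPM and SSD levels of 198, 213 and 246 TPM. The highest SSD library lay just under the lowest vehicle library. The log2 fold change was -0.39 (SE 0.0941, edgeR adjusted p = 0.0350), and on the TMM scale the adjusted p was 0.0814. The call was also lost without vehicle library 2, vehicle library 3, SSD library 1 or SSD library 2.

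CLCA4-AS1 (ENSG00000236915, chr1:86571181-86696311, minus strand, AL356270.1 in GENCODE 29) lies opposite to CLCA4, a gene of the calcium-activated chloride channel regulator family, and to the pseudogene CLCA3P. Its level was 4.05, 2.66 and 2.9 TPM with vehicle and 4.7, 4.51 and 5.55 TPM with SSD. The SSD libraries were all above the vehicle libraries, with vehicle library 1 near the lowest of them. These levels rested on 107, 118 and 97 counts against 153, 148 and 160, not scaled for depth. On the log2 scale it was higher by 0.79 (SE 0.141, edgeR adjusted p = 0.0100), a 1.72-fold rise, and the call was lost without vehicle library 2 or vehicle library 3 and in limma on log2(TPM + 1), where the adjusted p was 0.135. CCDC90B, CYP1B1 and CLCA4 were themselves not among the 1099 genes, so no ratio of an antisense transcript to its partner could be formed.

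The intergenic transcripts included LINC01411 and LINC01559, the members with the largest log2 fold changes in either direction. LINC01411, LINC01559 and LINC00973 fell, 3 of 7, against 18.4% of all table genes. With the zero at the middle of the gap 6 of 7 fell, against 49.5% of table genes. The summed level of the 7 was 511 TPM ± 53.5 (SD, n = 3) with vehicle and 387 ± 46.2 with SSD, 24.3% lower and without overlap. The median log2 fold change of the 7 was -0.53 (-0.46 on the TMM scale).

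LINC01411 (ENSG00000249306, chr5:174336295-174532457, plus strand) fell most of all members. It had 6.28, 7.1 and 6.41 TPM with vehicle and 2.56, 2.52 and 4.12 TPM with SSD. The groups were far apart, with SSD library 3 the nearest to the vehicle libraries. In counts not scaled for depth, the vehicle libraries had 77, 109 and 88 and the SSD libraries 34, 32 and 38. SSD library 3 thus stood apart in TPM more than in reads. Tested on counts, the log2 fold change was -1.12 (SE 0.186, edgeR adjusted p = 0.00780), a level 54.0% lower, and without vehicle library 2 the adjusted p was 0.0557.

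LINC01559 (ENSG00000180861, chr12:13371089-13387167, minus strand) had 5.1, 5.49 and 7.63 TPM with vehicle and 3.06, 3.78 and 4.28 TPM with SSD. No SSD library reached the lowest vehicle library, and vehicle library 3 was well above the other two. In edgeR the log2 fold change was -0.94 (SE 0.192, edgeR adjusted p = 0.0160), against -0.58 with an adjusted p of 0.115 in limma on log2(TPM + 1) and -0.69 with an adjusted p of 0.113 on log2(TPM + 0.1). The call was also lost without vehicle library 3 or SSD library 2.

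LINC00973 (ENSG00000240476, chr3:98981058-98983096, plus strand) was at 58.3, 50.6 and 46.9 TPM with vehicle and at 35.4, 34.15 and 38.7 TPM with SSD. All SSD libraries were lower than all vehicle libraries. Its log2 fold change was -0.54 (SE 0.104, edgeR adjusted p = 0.0126), and the call was lost without vehicle library 2 or SSD library 2. None of its 31-base words occurs in another gene of the annotation.

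The other 4 intergenic transcripts did not pass the test. LINC00665 (ENSG00000232677, chr19:36313067-36331718, minus strand), the most abundant of the class, had 326 TPM ± 48.2 (SD, n = 3) with vehicle and 246 ± 29.45 with SSD, and the groups overlapped. Its log2 fold change was -0.39, with an edgeR adjusted p of 0.0529, just outside the threshold. LINC00882 (ENSG00000242759, chr3:106836811-107240641, minus strand) had 51.3 ± 7.42 against 36.4 ± 7.48 TPM, a log2 fold change of -0.53 and an edgeR adjusted p of 0.102. Its difference was close to that of LINC00973 but its libraries spread more widely. LINC02582 (ENSG00000261780, chr18:73324941-73349878, plus strand) had 19.8 ± 0.536 against 15.8 ± 0.9395 TPM, a log2 fold change of -0.34 and an edgeR adjusted p of 0.0911. Of the 31-base words of LINC02582 and LINC00665, 19.8% and 17.2% occur in other genes, and how reads were divided was not tested. LINC00511 (ENSG00000227036, chr17:72290091-72640472, minus strand), which lies 163671 bases from SOX9, had 49.8 ± 3.73 against 45.8 ± 5.09 TPM, overlapping, with an interval of 2 standard errors on its log2 fold change from -0.32 to 0.01. AC007639.1 lies opposite to exons of LINC00511, and whether the libraries kept strand is not stated.

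**Figure D3:**
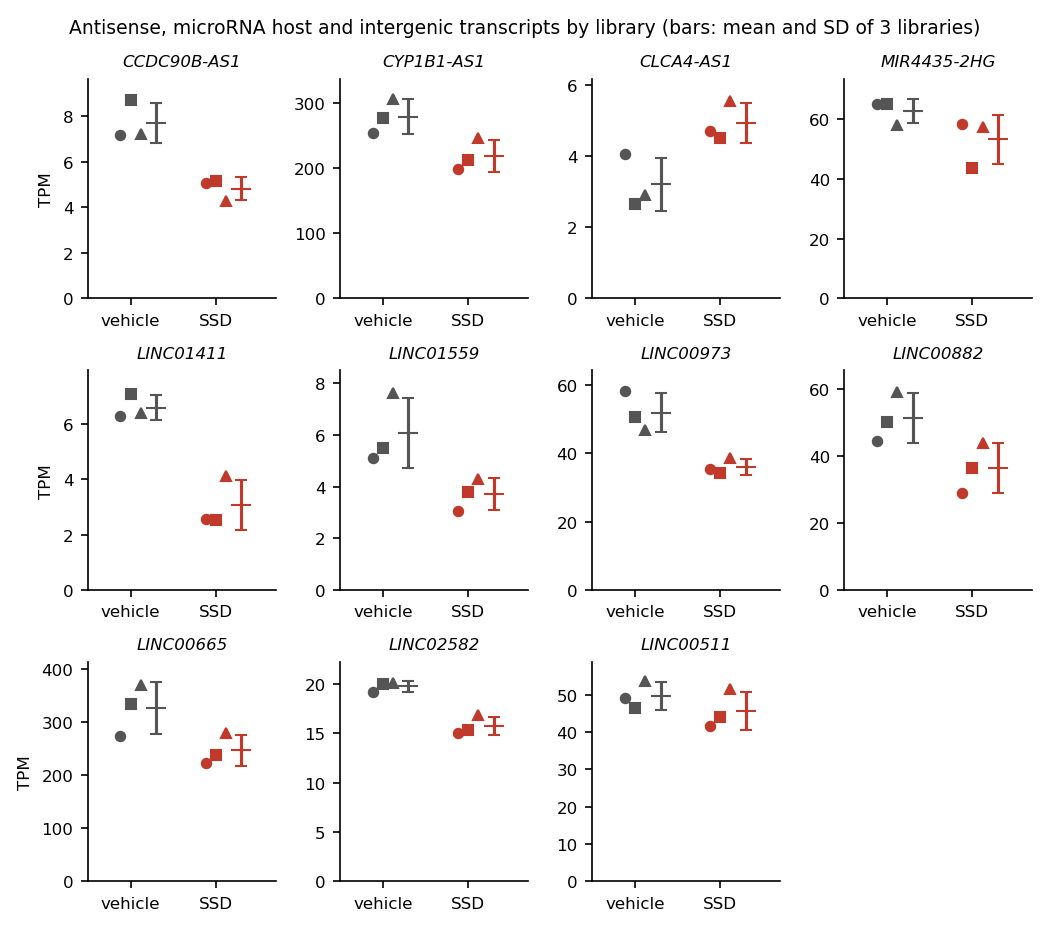
Level in TPM (y axis, from 0) of the antisense, microRNA host and intergenic members in the vehicle and SSD libraries. Circles, squares and triangles are replicates 1, 2 and 3, and bars give the mean and SD of 3 libraries. CLCA4-AS1 is higher with SSD in all 3 libraries, and MIR4435-2HG, LINC00665 and LINC00511 overlap between the groups.

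The ratio of a gene's counts to its TPM, divided by the library scale, follows the mean effective length of the transcripts that the authors' quantification assigned to it. This effective length stayed within 10% of its mean in all 6 libraries for 14 of the 17 members, and for 907 of the 1099 table genes. In LINC01559 it was 114%, 104% and 106% of the mean with vehicle and 89.0%, 89.4% and 96.9% with SSD. These were the only groups of a member that did not overlap, against 8.55% of all table genes, so counts and TPM measured different changes for this gene. In CLCA4-AS1 it was 84.1% in vehicle library 1 and 95.8% to 107% elsewhere, and in LINC01411 it was 84.1% in SSD library 3 and 94.7% to 113% elsewhere. In these 2 genes, 1 library thus stood further from the others of its group in TPM than in counts. Transcript levels were not analysed here.

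**Figure D4:**
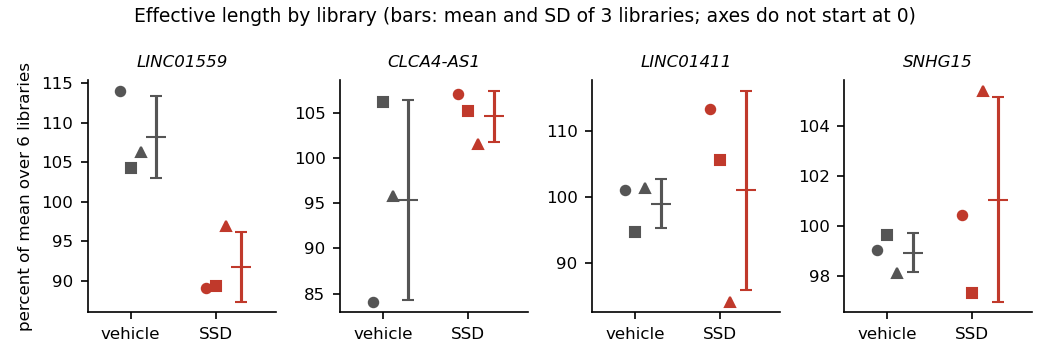
Effective length (y axis, percent of the gene's mean over 6 libraries, not starting at 0) of LINC01559, CLCA4-AS1, LINC01411 and SNHG15 in the vehicle and SSD libraries. Circles, squares and triangles are replicates 1, 2 and 3, and bars give the mean and SD of 3 libraries. LINC01559 is 104% to 114% with vehicle and 89.0% to 96.9% with SSD, and the groups of the other 3 genes overlap.

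Genes that share the snoRNA pathway with the hosts were read from the same fit. Of 52 protein-coding genes listed as snoRNA hosts, many of them genes of ribosomal proteins, 24 were in the table, 23 of these with a snoRNA in GENCODE 29 (NPM1 has none there). Their median log2 fold change was -0.16, against -0.14 over all table genes. Of the 24, 7 fell and 1 rose, against 18.4% and 32.3% of all table genes. The hosts that fell were NOP56 (-0.34) and DKC1 (-0.27), which are themselves snoRNP proteins, RPL21 (-0.25), RPL32 (-0.22) and RPS12 (-0.25), which are ribosomal proteins, and WDR43 (-0.23) and PPAN (-0.35), which act in ribosome assembly. EP400, a chromatin remodeller, rose (0.25). On the TMM scale 0 fell and 1 rose, against 7.92% and 35.0% of table genes, and 3 of the 24 lay above 0, as did 412 of the 1099 table genes. A TOP tract was at a RefSeq start of 11 of the 18 of these genes with a start, against 10.9% of 872 table genes.

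Of 19 listed proteins of the snoRNP particle and its assembly, 10 were in the table. Against 18.4% of all table genes, 4 of these 10 fell. They were NOP56 (-0.34), a core protein of C/D snoRNPs, SNU13 (-0.32), which binds the C/D fold, DKC1 (-0.27), the pseudouridine synthase of H/ACA snoRNPs, and NOLC1 (-0.22), a nucleolar chaperone of snoRNPs. All 10 lay below 0, as did 64.8% of the table, and their median was -0.25. On the TMM scale 0 of the 10 passed, while 7.92% of table genes fell.

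Among nonsense-mediated decay factors only UPF3B was in the table, 1 of 16 listed, with a log2 fold change of -0.19 and an edgeR adjusted p of 0.369. Of 14 microRNA processing factors TNRC6B, a partner of Argonaute proteins, was the 1 present, and it rose by 0.43 on the log2 scale (edgeR adjusted p = 0.0125). Its TPM groups overlapped, at 2.84, 3.15 and 3.9 with vehicle and 4.6, 4.38 and 3.68 with SSD, and the call was lost in limma on log2(TPM + 1) (0.28, adjusted p = 0.628) and without vehicle library 2 or SSD library 2. Long noncoding RNAs whose names do not follow the rule gave 3 of 27 listed genes. UCA1, first described in urothelial carcinoma, fell by 0.80 on the log2 scale (edgeR adjusted p = 0.00154), from 300, 347 and 412 TPM to 201, 204 and 201 TPM. TUG1 rose by 0.38 (edgeR adjusted p = 0.00805), from 70.7, 60.6 and 58.1 TPM to 77.9, 77.4 and 84.6 TPM, and its call was lost in limma on log2(TPM + 1) (0.34, adjusted p = 0.0855). GAS5, a snoRNA host with a TOP tract that is comparable in level to SNHG29, stood at 1321 ± 115 TPM with vehicle and 1252 ± 44.5 with SSD, overlapping, with a log2 fold change of -0.14 (edgeR adjusted p = 0.621).

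**Figure D5:**
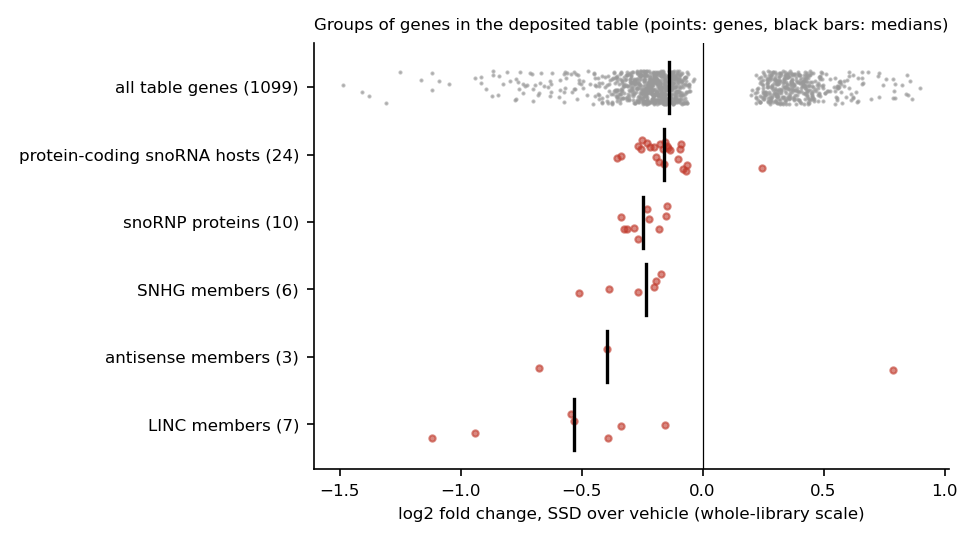
Log2 fold change (SSD over vehicle, x axis) of all 1099 table genes and of 5 groups of genes (y axis, group size in brackets). Points are genes and black bars are medians, which run from -0.14 for the table to -0.53 for the LINC members. No gene of the table lies between -0.04 and 0.20.

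Neighbouring genes within 500 kb of a member gave 12 pairs in the table. Of these neighbours, ATF6B, 275498 bases from SNHG32, rose by 0.31 on the log2 scale (edgeR adjusted p = 0.00810), and GALM, 434259 bases from CYP1B1-AS1, rose by 0.50 (edgeR adjusted p = 0.0138), opposite in direction to those members. The other 10 did not pass the test, including SYNCRIP, 17158 bases from SNHG5 (-0.06) and SOX9 near LINC00511 (-0.05). Of all table genes, 32.3% rose and 18.4% fell, and whether a member and its neighbour are linked was not tested.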

How the data were processed

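RNA-seq libraries of AGS cells, 3 with vehicle and 3 with SSD, were mapped to samples by matching column names to the labels. The authors deposited an estimated count and a TPM value for each gene and library. Estimated counts, 33.5% of them not whole, were rounded. TPM refers to the whole library, of which the table held 30.1% to 33.1%. The p-value and adjusted p-value columns, also computed by the authors, served only to read the number of genes they tested, 11289, and their fold changes were not used. The submitters' processing notes name GRCh38.p13, and the aligner and counting tool are not given in the sources used here. The table holds genes selected for change. Its totals, 3084337 to 4640114 counts, are not library depth.

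Library sizes were set from the median ratio of counts to TPM. Genes were tested with edgeR 4.0.16's quasi-likelihood test in R 4.3.3, with Benjamini-Hochberg adjustment over 11289 genes, taking those outside the table as having larger p. All 1099 genes passed the filter on low counts. In simulated counts, with changes of about 1.5-fold or more and the same dispersion for every gene, 199 of 200 changed genes were recovered and 0 unchanged ones called. That dispersion was a fixed setting, not estimated from these data, so neither number carries over to genes that vary more between libraries. Most members changed by less than 1.5-fold, so this recovery does not cover changes of their size. Replicates differed by more than sampling noise (chi-square per degree of freedom 4.59 to 15.3). Alternatives were TMM, DESeq2 1.42.0 size factors and Wald test, table totals, limma 3.58.1 on log2 TPM with a pseudocount of 1 or 0.1, filters, adjustment over the table alone, a replicate block and each library left out. The scale with its zero at the middle of the gap was chosen after seeing the data. The members and gene lists were chosen with earlier results of these data known. Every member is named, with each library's value for members past an adjusted p of 0.05 and for the largest change of each class in each direction, and list genes are named where they passed or to show a list's only members. Coordinates, overlaps and shared 31-base words came from GENCODE 29 (GRCh38), in which all 17 members were found by identifier, and starts and the microRNA from RefSeq (GRCh38.p14).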

Additional observations from a re-analysis of the deposited data

How the results depend on the processing

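All 17 members kept their direction under every alternative that gave a value, and LINC01411, with too few reads, has none under the minimum mean of 100 counts. In a table selected for change direction had little room to differ. No gene lay between -0.04 and 0.20, and the other scales moved log2 fold changes by a median of 0.10 or less. Of the 305 comparisons of a member with its reported call, 231 kept it, 53 lost it and 21 gained one, and SNHG15 never lost it. The ratio of an antisense transcript to its partner was not run, since no partner was in the table. On TMM and on DESeq2 size factors, 5 members were lower on each, as were 1 SNHG gene and 1 antisense transcript, with SNHG medians of -0.16 and -0.14, 0 protein-coding hosts, 0 snoRNP proteins and 87 and 86 table genes. Table totals gave an SNHG median of -0.18, 3 protein-coding hosts and 126 table genes lower. The scale with its zero at the middle of the gap, chosen after seeing the data, gave 14 members, 6 LINC transcripts, 17 protein-coding hosts with 0 higher, 10 snoRNP proteins and 544 table genes lower, and an SNHG median of -0.32. Adjusting over the table alone called 15 members, 6 LINC transcripts, 1 microRNA host, 17 protein-coding hosts, 10 snoRNP proteins and 583 table genes lower, and the DESeq2 Wald test 5 LINC transcripts and 13 protein-coding hosts. In limma on log2(TPM + 1), log2(TPM + 0.1), and log2(TPM + 1) with a mean of at least 1 TPM, 5 members were lower and 0 higher, with 2 SNHG genes, 1 antisense transcript, 1 protein-coding host and 1 snoRNP protein lower and 0 antisense transcripts and 0 protein-coding hosts higher, and 75, 73 and 77 table genes were lower and 114, 115 and 111 higher. Replicate numbers did not pair the libraries (correlations of same-numbered deviations -0.06, 0.04 and 0.02). With the replicate block, 7 members, 1 SNHG gene, 0 protein-coding hosts, 0 snoRNP proteins and 84 table genes were lower, with 0 protein-coding hosts and 136 table genes higher, and SNHG17 and TNRC6B were among the genes that lost their calls (adjusted p = 0.0680 and 0.0530). Leaving out 1 library gave 2 to 14 members lower and 0 to 1 higher, 1 to 6 SNHG genes, 0 to 2 antisense and 1 to 6 LINC transcripts lower with a LINC median of -0.61 to -0.38, 0 to 1 antisense transcripts higher, 1 to 8 protein-coding hosts lower and 0 to 1 higher, 1 to 6 snoRNP proteins lower, and 60 to 313 table genes lower and 110 to 379 higher. The lowest of each of these counts of lower genes came without vehicle library 2, in part shared with other libraries, and the highest of the members without SSD library 3. The cause of these shifts was not tested beyond the smaller number of libraries, genes or tests that an alternative holds. Low counts limit LINC01411, CLCA4-AS1 and LINC01559 (means of 63.0, 130.5 and 135 counts).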
